A study of Mus musculus with 16 samples.

Results

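Voltage-gated sodium channels were examined in cortices of 16 mouse pups at P7 through 7 genes of their brain subunits. These were the pore-forming alpha subunits Scn1a, Scn2a1, Scn3a and Scn8a and the auxiliary beta subunits Scn2b, Scn3b and Scn4b. They were picked by gene symbol, and all 7 were among the 36930 entries of the table of normalized reads. Testing was limited to 21183 genes that exceeded a log2 value of -5 in 12 or more of the 16 pups. This kept 6 of the 7 subunits but not Scn2b, which had a value in 4 pups only.

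The study asked how activation of sensory neurons by light in the first days of life changes the cortex. In the 8 Avil-ChR2 pups, a Cre recombinase driven by the advillin promoter removes a stop cassette in front of the light-gated channel ChR2, which had been inserted into the Rosa26 locus. This promoter is known for its activity in peripheral sensory neurons, so that the cortex is not the tissue in which ChR2 was meant to be expressed. The 8 ChR2-flfl pups carry the floxed construct without Cre. Both groups were C57BL6, and each pup spent 1 h per day under blue light on days P1 to P5, so that all differences are between genotypes under light and no unexposed pups were analysed here. The labels list 4 male and 4 female ChR2-flfl pups and 3 male and 5 female Avil-ChR2 pups. Each value comes from a different pup, and litters are not listed in the labels.

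Normalized reads were CPM (reads of a gene relative to the library's total) scaled with TMM factors. The reads behind them summed to 30549126 in ChR2-flfl replicate 3 and to between 47791532 and 48711134 in the other pups. Avil, whose promoter drives Cre, had 0.825 to 1.46 normalized reads in ChR2-flfl pups and 37.3 to 46.4 in Avil-ChR2 pups, which matches the labelled genotypes. These Avil reads are from cortex. Where they come from, and whether Cre or ChR2 was made in this tissue, was not tested. All 5 markers of excitatory cortical neurons were detected in every pup, with a summed level of 1105 to 1218 normalized reads in ChR2-flfl and 1165 to 1238 in Avil-ChR2 pups. The 5 markers of peripheral sensory neurons together had 4.19 to 6.08 and 5.01 to 6.003 normalized reads, respectively. The pup numbers in the labels go from 26 to 42 with a gap after 33. They were split here at this gap into a first run (numbers 26 to 33) and a second run (numbers 35 to 42). Each run holds 4 pups of each genotype, and values are therefore also given by run.

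Alpha subunits form the pore through which sodium enters at the start of an action potential, and beta subunits bind to them, change their gating and act as cell adhesion molecules. Around birth, the brain is known to switch between alpha subunits. Scn3a (Nav1.3) is typical of immature neurons, Scn2a (Nav1.2, listed as Scn2a1) fills the axon initial segment of young excitatory neurons, Scn8a (Nav1.6) takes its place as axons mature, and Scn1a (Nav1.1) is best known from inhibitory interneurons. Scn2b and Scn4b bind alpha subunits by a disulfide bond, whereas Scn3b binds them without one. Scn4b is known as a subunit of striatal projection neurons and other fast-firing cells.

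On GRCm38, Scn3a (minus strand, chr2:65457118-65567527), Scn2a1 (plus strand, chr2:65620764-65767449) and Scn1a (minus strand, chr2:66270781-66440847) lie near each other on chromosome 2. Scn8a lies on the plus strand at chr15:100868549-101045938. The beta subunits are all on the plus strand of chromosome 9, with Scn3b at chr9:40269187-40291618, Scn2b at chr9:45117876-45130070 and Scn4b at chr9:45139042-45154061. The long non-coding gene Gm10684 (minus strand, chr9:45107176-45135606) covers all 12195 bases of Scn2b, without a shared exonic base in the GENCODE annotation, and does not reach Scn4b.

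Start regions of 300 bases (250 before and 50 after the transcription start, RefSeq, GRCm38.p6) were found for 5 of the 7 genes, in 7 windows. Those shown are of Scn1a and Scn2a, whose levels moved together over the pups, and of Scn2b and its overlapping entry Gm10684. Gm10684 was higher in the pups without a value of Scn2b. The window of their neighbour Scn4b, the subunit with the lowest level, is shown as well. Capitals mark CG dinucleotides, the sites of DNA methylation. The windows are given in the direction of transcription.
Scn1a, minus strand, chr2:66440788-66441087: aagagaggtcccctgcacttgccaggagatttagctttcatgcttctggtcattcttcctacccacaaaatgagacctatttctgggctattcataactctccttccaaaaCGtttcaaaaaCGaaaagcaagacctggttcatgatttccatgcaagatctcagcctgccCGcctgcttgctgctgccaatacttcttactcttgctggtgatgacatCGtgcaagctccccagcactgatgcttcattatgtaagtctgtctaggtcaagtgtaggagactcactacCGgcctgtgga
Scn2a, plus strand, chr2:65620519-65620818: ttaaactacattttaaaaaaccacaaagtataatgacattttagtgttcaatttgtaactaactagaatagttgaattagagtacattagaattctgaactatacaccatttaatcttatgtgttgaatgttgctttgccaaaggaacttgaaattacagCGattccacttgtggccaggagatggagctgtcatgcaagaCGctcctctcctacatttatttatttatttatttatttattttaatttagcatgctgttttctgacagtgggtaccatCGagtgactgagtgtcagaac
Scn2b, plus strand, chr9:45117626-45117925: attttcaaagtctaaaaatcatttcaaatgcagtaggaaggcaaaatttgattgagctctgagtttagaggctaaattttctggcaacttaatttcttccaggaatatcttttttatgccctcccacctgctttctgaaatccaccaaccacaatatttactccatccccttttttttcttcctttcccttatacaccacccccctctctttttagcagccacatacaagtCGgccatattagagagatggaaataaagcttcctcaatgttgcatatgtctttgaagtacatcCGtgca
Gm10684, minus strand, chr9:45135557-45135856: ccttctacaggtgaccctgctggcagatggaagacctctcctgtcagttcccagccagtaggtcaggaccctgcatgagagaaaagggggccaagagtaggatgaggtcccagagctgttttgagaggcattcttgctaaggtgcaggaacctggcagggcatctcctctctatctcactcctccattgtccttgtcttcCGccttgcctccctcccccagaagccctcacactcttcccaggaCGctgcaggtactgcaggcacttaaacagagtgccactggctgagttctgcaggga
Scn4b, plus strand, chr9:45138374-45138673: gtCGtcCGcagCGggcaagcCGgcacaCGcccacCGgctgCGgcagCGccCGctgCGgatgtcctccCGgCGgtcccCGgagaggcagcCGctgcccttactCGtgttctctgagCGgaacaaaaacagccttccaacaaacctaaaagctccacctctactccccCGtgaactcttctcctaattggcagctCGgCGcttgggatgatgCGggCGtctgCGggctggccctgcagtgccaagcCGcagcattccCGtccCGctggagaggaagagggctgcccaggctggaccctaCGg

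The start regions of the subunits differed widely in their CG dinucleotides. The window of Scn2b held 2 and that of Gm10684 also 2, at a G and C content of 38.3% and 56.7%. Over the 32851 windows of the RefSeq table the median was 7, and 23.3% of them held at most 2. Scn2a held 3 at the start shown and 9 at a second one, and Scn1a held 5, whereas Scn4b held 26, more than 83.1% of all windows. Scn8a, not shown, held 38 at its first start, and 95.6% of all windows held at most as many. A second start of Scn8a held 12. The subunit with the lowest level thus had one of the CG-rich windows. That window ends at 45138673, before the entry of Scn4b starts at 45139042. The 2 windows of Scn8a lie inside its entry and do not cover its start.

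In P7 cortex of both genotypes, Scn3b and Scn2a1 were the leading subunits. Levels of different genes were compared as CPM per kb of the longest transcript. Scn3b had 60.8 ± 1.94 CPM per kb (SD over 16 pups) and Scn2a1 58.4 ± 2.52. Scn3b was above Scn2a1 in 13 of 16 pups, and the ranges of these neighbours overlapped. Per kb of all annotated exons, Scn3b was above Scn2a1 in 16 pups, with a mean ratio of 1.13. Scn8a followed with 19.7 ± 1.21 CPM per kb, so that Scn2a1 was 2.62 to 3.21 times as high as Scn8a in the same pup. Scn3a had 15.8 ± 1.05 CPM per kb and was below Scn8a in all 16 pups, although the highest pup of Scn3a (18.1) was above the lowest pup of Scn8a (17.9). Scn1a had 9.44 ± 0.778 CPM per kb, below every value of Scn3a. Scn4b was far lower, with 0.360 ± 0.110 CPM per kb.

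Among the 4 alpha subunits, summed per kb, Scn2a1 made up 56.2% ± 1.13 of the total in the 8 ChR2-flfl pups (mean ± SD) and 56.8% ± 0.487 in the 8 Avil-ChR2 pups. The share of Scn8a was 19.3% ± 1.04 and 18.9% ± 0.718, that of Scn3a 15.4% ± 0.554 and 15.1% ± 0.408, and that of Scn1a 9.03% ± 0.570 and 9.22% ± 0.422, in the same order. The shares of both genotypes overlapped for each of these subunits.

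**Figure D1:**
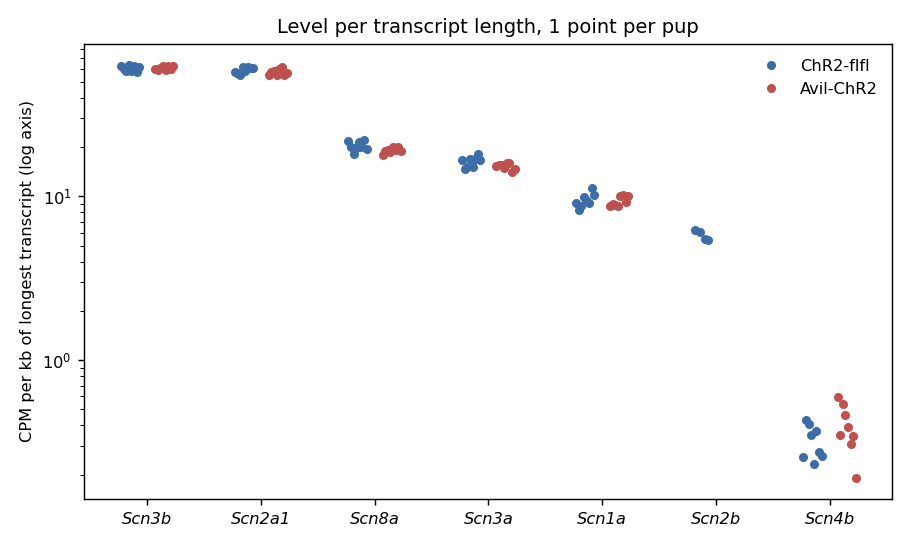
Level of each subunit in CPM per kb of its longest transcript (log axis), with 1 point per pup, ChR2-flfl in blue and Avil-ChR2 in red. Scn3b and Scn2a1 lie near 60 CPM per kb, Scn4b lies below 1, and Scn2b has points in 4 ChR2-flfl pups only.

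The genotypes differed little in these subunits. Differences are given on the log2 scale as Avil-ChR2 minus ChR2-flfl, with the standard error (SE) and the Benjamini-Hochberg adjusted p of limma over all 21183 genes. By this test, 0 of the 6 subunits tested had an adjusted p under 0.05, against 2 genes or 0.00944% of all genes. At an unadjusted p under 0.05 there were 2 subunits, Scn3a and Scn8a, both lower in Avil-ChR2, beside 5.41% of all genes in either direction and 3.46% that were lower and 1.95% that were higher. Without ChR2-flfl replicate 1, without ChR2-flfl replicate 7 or without Avil-ChR2 replicate 1 this count was 0, and it was 1 without ChR2-flfl replicate 4, 5, 6 or 8 and without Avil-ChR2 replicate 4 or 7. Scn8a was under 0.05 in 12 of these 16 fits and Scn3a in 7. Without Avil-ChR2 replicate 8, the count of 2 held Scn8a and Scn4b, which was higher in Avil-ChR2 by 0.40 (limma unadjusted p = 0.0254), and Scn3a had an unadjusted p of 0.0684. The genotypes overlapped in each of the 6 subunits, whereas 0.0283% of all genes did not overlap. Over the 6 subunits the median of the log2 differences was -0.030, beside 0.0020 over all genes. In bulk tissue, fewer cells of a type and less RNA per cell cannot be told apart.

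Scn8a, the channel of mature axon initial segments, had the smallest p of the subunits. ChR2-flfl pups ranged from 207 to 252 normalized reads with a median of 229, and Avil-ChR2 pups from 205 to 230 with a median of 218. The control mean exceeded all 8 Avil-ChR2 values, 1 of which lay under the lowest control, and the groups overlapped. The means were 233 ± 15.4 (SD, n = 8) and 219 ± 7.97 (SD, n = 8). This is a log2 difference of -0.086 (SE 0.037, 95% interval -0.16 to -0.0091, limma adjusted p = 0.884). Within the first run it was -0.082 and within the second -0.089. Each value rested on 6412 to 12123 reads.

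Scn3a, the channel of immature neurons, showed a difference of like size. Its values were 141 to 173 normalized reads with a median of 159 in ChR2-flfl and 135 to 154 with a median of 147 in Avil-ChR2 pups. The ChR2-flfl pups fell into a low set of 141, 144 and 145 (replicates 2, 3 and 5) and a high set of 159 to 173, and the Avil-ChR2 pups lay mostly between these. The means were 155 ± 11.2 (SD, n = 8) and 146 ± 6.28 (SD, n = 8), a log2 difference of -0.088 (SE 0.040, 95% interval -0.17 to -0.0044, limma adjusted p = 0.908). Again the control mean exceeded all 8 Avil-ChR2 values, but the difference was -0.045 within the first run and -0.13 within the second.

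Scn3a moved with a gradient of gene length. For each pup, a slope of the log2 values of all genes against their genomic length was calculated, after subtraction of gene means. It was 0.012 ± 0.032 log2 units per log10 unit of length in ChR2-flfl (SD, n = 8) and -0.012 ± 0.024 in Avil-ChR2 pups (SD, n = 8; exact permutation test, two-sided, p = 0.113). With this slope as a covariate, the log2 difference of Scn3a was -0.029 and that of Scn8a -0.062 (limma adjusted p = 0.937 for both), and that of Scn1a turned from -0.023 to 0.054. The alpha subunits span 110410 to 177390 bases, against 12195 to 22432 bases of the beta subunits. Over the 16 pups, after subtraction of genotype means, the slope correlated with Scn3a (Pearson's r = 0.82, permutation p = 0.00012, and Spearman's rho = 0.83, permutation p = 0.00011). Without the 2 pups farthest from the median of Scn3a r was again 0.82, within the first run it was 0.75 and within the second 0.85. For Scn8a, which has the longest span, r was 0.37 (permutation p = 0.166, adjusted p = 0.295), with 0.15 without the 2 farthest pups and 0.36 and 0.12 within the runs. What part gene length has in the genotype differences was not tested.

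Scn2a1, the most abundant alpha subunit, ranged from 491 to 554 normalized reads with a median of 532 in ChR2-flfl and from 493 to 549 with a median of 513 in Avil-ChR2 pups. The ranges almost coincided. The log2 difference was -0.037 (SE 0.031, 95% interval -0.10 to 0.028, limma adjusted p = 0.953), with 6 of 8 Avil-ChR2 values under the control mean.

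Scn1a, the subunit of fast-spiking interneurons, had 69.3 to 94.8 normalized reads in ChR2-flfl with a median of 78.2 and 73.0 to 85.1 in Avil-ChR2 pups with a median of 76.1. The Avil-ChR2 values lay within the range of the controls. The log2 difference was -0.023 (SE 0.054, 95% interval -0.13 to 0.089, limma adjusted p = 0.986).

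Scn3b, the leading beta subunit of these cortices, was the steadiest of the 6 subunits, with a coefficient of variation of 3.79% in ChR2-flfl and 2.69% in Avil-ChR2 pups. It had 240.5 to 265 normalized reads with a median of 252 in ChR2-flfl and 244 to 262 with a median of 252 in Avil-ChR2 pups. Its log2 difference was 0.0076 (SE 0.026, limma adjusted p = 0.992), whose 95% interval of -0.047 to 0.062 corresponds to between 0.968 and 1.04 times the control level.

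Scn4b was the most variable, with 46 to 145 reads per pup. ChR2-flfl pups ranged from 1.16 to 2.16 normalized reads with a median of 1.55, and Avil-ChR2 pups from 0.947 to 2.97 with a median of 1.85. There were 3 Avil-ChR2 pups above the highest ChR2-flfl pup and 1 below the lowest. The log2 difference was 0.26 (SE 0.20, 95% interval -0.15 to 0.67, limma adjusted p = 0.945). It was 0.43 within the first run, 0.092 within the second, 0.40 without Avil-ChR2 replicate 8 and 0.17 without Avil-ChR2 replicate 1. At this depth and spread, differences of up to 1.59 times the control level were within the interval.

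**Figure D2:**
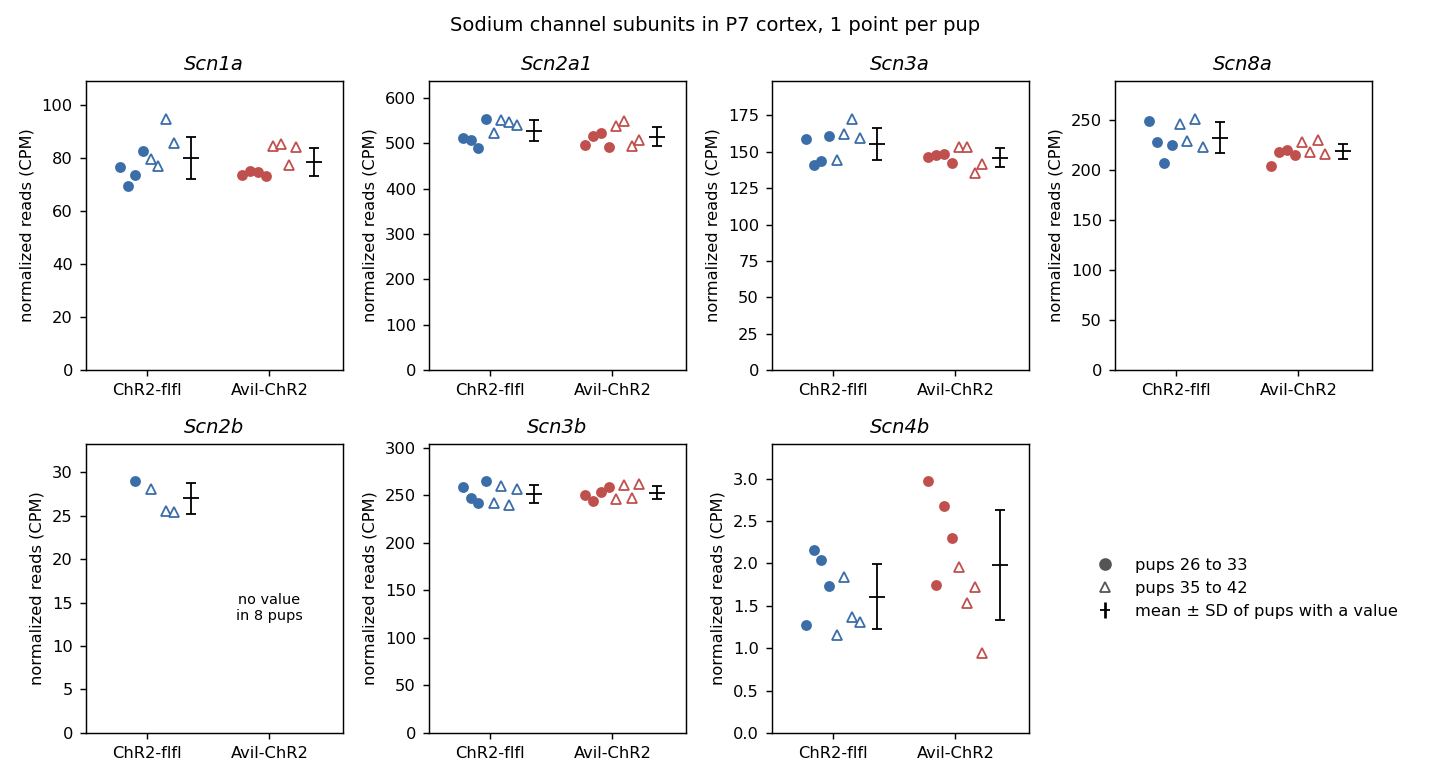
Normalized reads (CPM) of the 7 subunits, 1 point per pup, by genotype, with filled circles for the first run of pup numbers (26 to 33), open triangles for the second (35 to 42), and black bars for mean ± SD of the pups with a value. The genotypes overlap in every panel with values in both, and Scn2b has values in 4 ChR2-flfl pups and in 0 Avil-ChR2 pups.

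**Figure D3:**
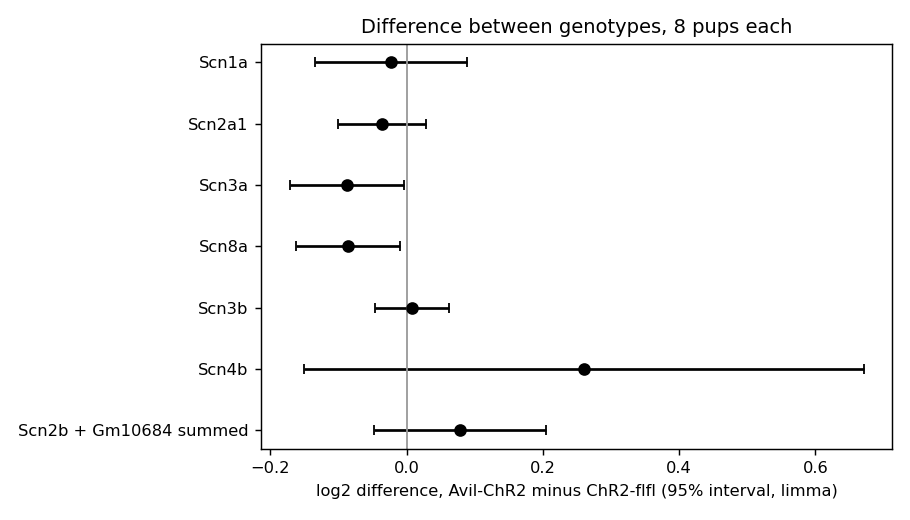
Log2 difference (Avil-ChR2 minus ChR2-flfl) with its 95% interval from limma for the 6 subunits tested and for the sum of Scn2b and Gm10684. The intervals of Scn3a and Scn8a lie just below 0, and the others include 0.

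Scn2b, the beta subunit that the protease Bace1 is known to cleave, could not be compared from its own entry. It had 28.9, 28.1, 25.6 and 25.4 normalized reads in ChR2-flfl replicates 3, 5, 7 and 8, from 895 to 1361 reads, and no value in the other 4 ChR2-flfl and in all 8 Avil-ChR2 pups. Gm10684 was higher where Scn2b had no value. It had 22.2 to 25.2 normalized reads in the 4 pups with a value of Scn2b, whereas it had 39.7 in ChR2-flfl replicate 1 and 48.7 to 60.7 in the other pups without one. In the 4 pups with both, the pups ranked alike in Scn2b and Gm10684, and Scn2b made up 53.0% to 53.8% of their sum. The sum was 47.6 to 54.1 in these pups and 39.7 to 60.7 in the other 12, so that the empty cells stand beside about as many reads at the locus. An empty cell of Scn2b was therefore not read as absence of its RNA.

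With empty cells set to the floor of -5, Scn2b would appear lower in Avil-ChR2 by a log2 difference of -4.88 (limma adjusted p = 0.808), and Gm10684 higher by 0.63 (SE 0.19, limma adjusted p = 0.772). The sum of both entries had a log2 difference of 0.078 (SE 0.061, 95% interval -0.048 to 0.20, limma adjusted p = 0.945), with means of 50.7 ± 5.57 normalized reads in ChR2-flfl (SD, n = 8) and 53.3 ± 3.60 in Avil-ChR2 pups (SD, n = 8). In the 12 pups without a value of Scn2b, the log2 difference of Gm10684 was 0.080. These sums were added after the values had been seen. They cannot separate Scn2b from Gm10684, since whether the counting used strand is not stated, although the methods of the study name a stranded kit. In the table, 24 entries were empty in some pups and had at least 2 normalized reads in every pup with a value, and 24 of these overlapped another entry, beside 39.4% of the 13902 entries with a mean of at least 2. Scn2b was the only entry with its pattern of empty pups.

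**Figure D4:**
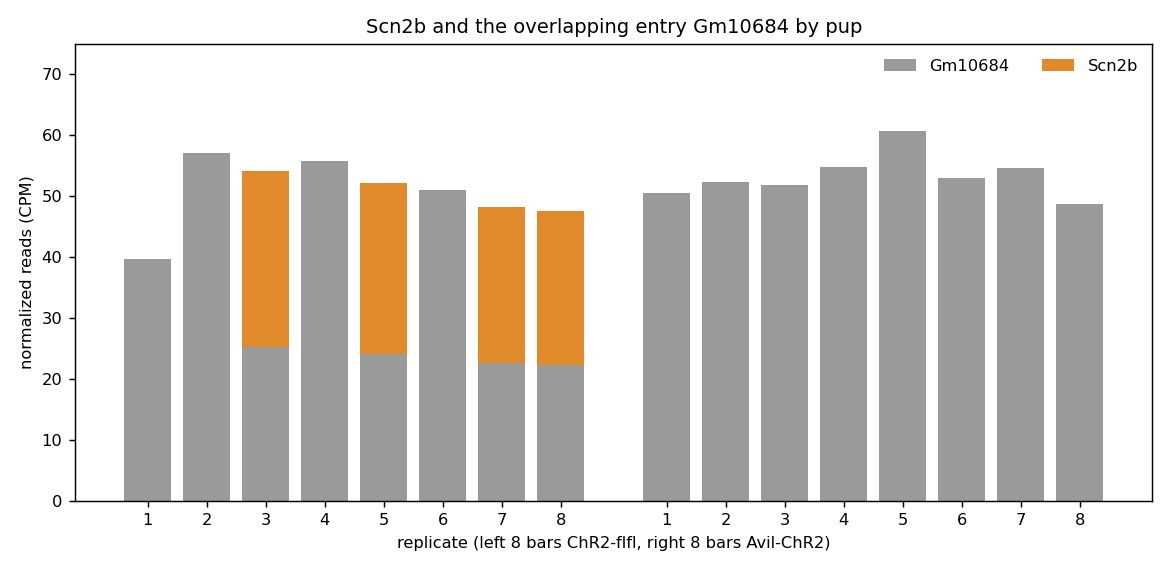
Normalized reads (CPM) of Gm10684 (grey) and Scn2b (orange) stacked for each of the 16 pups. Orange appears in ChR2-flfl replicates 3, 5, 7 and 8 only, on grey bars of 22.2 to 25.2, and the whole bars reach 39.7 to 60.7.

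Ratios between subunits, which do not depend on the scaling of a library, were compared for 4 pairs with two-sided exact permutation tests over 12870 splits, adjusted over the 4 ratios. The log2 ratio of Scn1a to Scn3a, which is known to rise as the cortex matures, was -0.96 ± 0.084 in the 8 ChR2-flfl and -0.90 ± 0.093 in the 8 Avil-ChR2 pups (mean ± SD), a difference of 0.065 (exact p = 0.166, adjusted p = 0.367). It was 0.022 within the first run and 0.11 within the second. The log2 ratio of Scn8a to Scn3a was 0.58 ± 0.11 and 0.58 ± 0.085, a difference of 0.0021 (exact p = 0.965, adjusted p = 0.965). Scn8a to Scn2a1, the exchange at the axon initial segment, was -1.18 ± 0.099 and -1.23 ± 0.065, a difference of -0.049 (exact p = 0.256, adjusted p = 0.367). Scn4b to Scn3b was -7.32 ± 0.34 and -7.07 ± 0.53, a difference of 0.25 (exact p = 0.275, adjusted p = 0.367). None of the ratios passed the test.

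The runs of pup numbers separated some subunits more than genotype did. With genotype in the fit, Scn1a was higher in the second run by 0.16 on the log2 scale (SE 0.041, limma adjusted p = 0.118). Its means were 74.8 ± 3.83 normalized reads in the 8 pups of the first run and 83.5 ± 5.80 in the 8 pups of the second (mean ± SD). Scn4b was lower in the second run, by a log2 difference of -0.51 (SE 0.16, limma adjusted p = 0.196), with means of 2.11 ± 0.542 and 1.48 ± 0.348. In all, 0 of 6 subunits had an adjusted p under 0.05 for the run, beside 0.123% of all genes, and 2 had an unadjusted p under 0.05, beside 12.5% of all genes. With 1 pup left out in turn, the limma adjusted p of Scn1a lay between 0.0498 and 0.227, and the lowest, without ChR2-flfl replicate 4, was the only one under 0.05.

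The ratios moved with the run as well. The log2 ratio of Scn1a to Scn3a had a mean of -0.99 ± 0.033 in the first run and -0.87 ± 0.095 in the second (exact permutation test within genotypes over 4900 splits, two-sided, p = 0.0049, adjusted over 4 ratios 0.0196). That of Scn4b to Scn3b was -6.95 ± 0.40 and -7.45 ± 0.36 (exact p = 0.0147, adjusted p = 0.0294). Scn8a to Scn3a and Scn8a to Scn2a1 differed by 0.025 and 0.0079 (exact p = 0.623 and 0.859). This test was added after the values by run had been seen. What the runs stand for is not given in the labels.

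The summed markers of striatal neurons and of the oligodendrocyte lineage lay lower in the second run, with overlapping ranges. The 4 markers of striatal neurons used here (Ppp1r1b, Drd1, Drd2 and Adora2a) were detected in every pup and summed to 37.3 to 56.0 normalized reads in the first run and 25.9 to 44.7 in the second. Those of the oligodendrocyte lineage summed to 282 to 361 and 255 to 293. Median sums in the same order were 5485 and 5468 for neurons, 1207 and 1195 for excitatory cortical neurons, and 296 and 281 for interneurons. They were 872 and 875 for astrocytes, 73.1 and 73.7 for microglia, and 182 and 180 for endothelial cells. None of these 9 striatal and oligodendrocyte lineage genes had an adjusted p under 0.05 for the run in limma. Their part in the run differences of Scn1a and Scn4b was not tested.

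Over the 16 pups, after subtraction of genotype means, Scn4b and Scn1a followed the striatal markers in opposite directions. In all, 39 relations were computed, between pairs of the 6 subunits, with the mean log2 level of 3 marker lists and with the length slope. The p-values of 100000 permutations were adjusted over them. For all 39 relations, the run was not subtracted, and pups of both runs were permuted together. The pooled r and p therefore include differences between the runs. Scn4b correlated with the striatal markers with Pearson's r = 0.74 (permutation p = 0.00091, adjusted p = 0.00592) and Spearman's rho = 0.72 (permutation p = 0.00238, adjusted p = 0.0133). Without the 2 pups farthest from the median of Scn4b, r was 0.62, with 0.40 within the first run and 0.66 within the second. Scn1a correlated with the same markers with r = -0.83 (permutation p = 4e-05, adjusted p = 0.00156) and rho = -0.89 (adjusted p = 0.00078), with -0.87 without the 2 farthest pups, -0.42 within the first run and -0.82 within the second. Scn1a also ran against the interneuron markers (Gad1, Gad2, Slc32a1, Lhx6 and Sst), with r = -0.80 (permutation p = 0.00021, adjusted p = 0.00273) and rho = -0.80 (adjusted p = 0.00351). This r was -0.66 without the 2 farthest pups and -0.74 and -0.61 within the runs. Scn1a shared this with Scn2a1 (r = -0.64, permutation p = 0.00778) and Scn3a (r = -0.63, permutation p = 0.00847). For both of these the adjusted p was 0.0300, and it was under 0.05 for rho as well. Within the runs r was -0.51 and -0.51 for Scn2a1 and -0.60 and -0.69 for Scn3a. Scn8a (r = -0.31), Scn3b (r = -0.10) and Scn4b (r = 0.57) did not pass the adjustment. In all, 14 of the 39 relations had an adjusted p under 0.05 for r, and 12 of them also for rho. For r only did so Scn1a with the excitatory markers (r = -0.62, permutation p = 0.00978), with 0.29 within the first run and -0.63 within the second, and Scn2a1 with the striatal markers (r = -0.60, permutation p = 0.0164), with -0.70 and -0.086 within the runs.

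**Figure D5:**
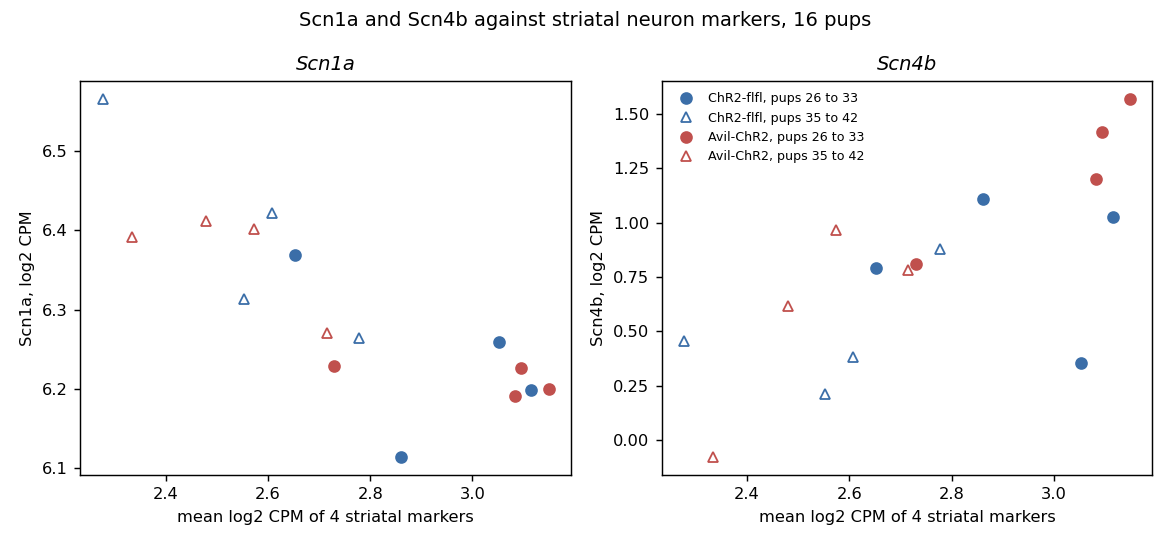
Scn1a (left) and Scn4b (right) in log2 CPM against the mean log2 CPM of 4 striatal markers, 1 point per pup, with genotype by colour and run of pup numbers by symbol. Scn1a decreases and Scn4b increases along the axis, with r of -0.83 and 0.74 after subtraction of genotype means, and pups of the first run lie mostly to the right.

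The alpha subunits of chromosome 2 moved together. Scn2a1 and Scn3a correlated with r = 0.78 (permutation p = 0.00047, adjusted p = 0.00458) and rho = 0.86 (adjusted p = 0.00117), with 0.74 without the 2 pups farthest from the median, and with 0.71 and 0.87 within the runs. Scn1a and Scn2a1 correlated with r = 0.67 (permutation p = 0.00412, adjusted p = 0.0192) and rho = 0.74 (adjusted p = 0.0117), with 0.67 without the 2 farthest pups and 0.75 and 0.41 within the runs. Scn1a and Scn3a had the same r of 0.67 (permutation p = 0.00443, adjusted p = 0.0192) and rho = 0.69 (adjusted p = 0.0193), with 0.86 and 0.67 within the runs. Without the 2 pups farthest from the median of Scn1a r was 0.39, so that the size of the pooled r depends on those pups. In contrast, the correlations of Scn8a with Scn2a1 (r = 0.29), Scn3a (r = 0.29) and Scn1a (r = 0.42) did not pass the adjustment, with permutation p of 0.272, 0.277 and 0.106. The length slope correlated with Scn2a1 (r = 0.68, permutation p = 0.00384) and Scn1a (r = 0.76, permutation p = 0.0007) as well as with Scn3a, and its part in these correlations was not tested.

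The genes most like each subunit over the 16 pups were looked up among 11000 genes whose log2 values averaged 3 or more. These likenesses are descriptions and share the libraries. Scn3a was closest to Thoc2 (r = 0.97), a subunit of the complex that exports mRNA, and to Tab3 (r = 0.97), an adaptor of the kinase Tak1. Scn2a1 was closest to Gprasp1 (r = 0.94), which sorts receptors, and Tcaf1 (r = 0.93), and Scn1a to the adhesion molecule Cadm2 and to Gm20063 (r = 0.90 for both). For Scn8a these were Kalrn, a guanine nucleotide exchange factor of dendritic spines, and Gramd1b (r = 0.90 for both). Scn3b was closest to Pgap1 (r = 0.84), which remodels GPI anchors, and to the transcription factor Tox (r = 0.82). Scn4b was closest to Lims2 (r = 0.90) and to Bcas1 (r = 0.89), a marker of newly myelinating oligodendrocytes.

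After adjustment, no difference of the genotype effect between runs or sexes was detected in the 6 subunits. For a genotype by run interaction, 0 of 6 subunits had an adjusted p under 0.05 in limma and 0 an unadjusted p under 0.05, beside 0 (adjusted) and 3.04% (unadjusted) of all genes. For a genotype by sex interaction with the labelled sexes, counts of subunits were also 0 and 0, beside 4.31% of all genes at an unadjusted p. The 4 male ChR2-flfl pups had 1.16 to 1.37 normalized reads of Scn4b, below the 3 male Avil-ChR2 pups at 1.53 to 2.97. Female pups had 1.73 to 2.16 in ChR2-flfl and 0.947 to 2.67 in Avil-ChR2. The male controls were replicates 1, 5, 7 and 8, of which only replicate 1 belonged to the first run, and Scn4b was lower in the second run. Sex and run thus partly coincide in the controls, and their parts were not tested. The interaction term of Scn4b was 0.73 (SE 0.37, limma adjusted p = 0.993). Scn8a had a term of -0.14 (SE 0.066, limma adjusted p = 0.993), with 223 to 252 normalized reads in male controls and 205 to 230 in male Avil-ChR2 pups. With the sexes of the study's supplementary sheet, in which Avil-ChR2 replicate 4 is male, the unadjusted p of these terms were 0.0244 and 0.0318 in limma, and the adjusted p was 0.799 for both. The share of all genes with these sexes is not given here, and the 4.31% belongs to the labelled sexes.

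None of the other channels examined passed the test. Of 6 further genes (Scn4a, Scn7a, Scn9a, Scn10a, Scn11a and Nalcn), 4 had a negative and 2 a positive log2 difference, 0 had an unadjusted p under 0.05, and the median log2 difference was -0.054. The most positive log2 differences were 0.57 for Scn10a and 0.14 for Scn11a, both channels of nociceptors with means under 1 normalized read. The most negative were -0.18 for Scn7a, a sodium sensor of glia, and -0.15 for Scn9a, which had 19.9 ± 3.77 and 17.7 ± 1.498 normalized reads (SD, 8 pups each).

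Of 19 partners of sodium channels at the axon initial segment and node, 15 had a negative and 4 a positive log2 difference, and the median was -0.041. An unadjusted p under 0.05 was reached by 4, all lower, beside 3.46% of all genes, and 0 passed the adjustment. These were Ank3, the ankyrin that anchors sodium channels at the initial segment, with 578 ± 67.2 and 519 ± 24.6 normalized reads (log2 difference -0.15, limma adjusted p = 0.831), and Ank2, its relative along the axon (log2 difference -0.13, limma adjusted p = 0.825). The others were Kcnq3, a potassium channel that binds the same ankyrin (-0.092, limma adjusted p = 0.911), and Fgf14, which binds the tail of alpha subunits (-0.089, limma adjusted p = 0.908). The most positive differences were 0.049 for Fgf11 and 0.035 for Fgf13, which belong to the same group of intracellular factors as Fgf14.

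Of 12 regulators of sodium channel RNA, cleavage or turnover, 8 had a negative and 4 a positive log2 difference, and the median was -0.021. An unadjusted p under 0.05 was reached by 2, both lower, beside 3.46% of all genes, and an adjusted one by 0. Those 2 were the neuronal splicing factors Nova2 (-0.10, limma adjusted p = 0.911) and Nova1 (-0.075, limma adjusted p = 0.911). Bace2, a protease, had the most negative log2 difference of -0.14 (limma adjusted p = 0.964). The most positive were 0.065 for Rest, a repressor of neuronal genes that include Scn2a, and 0.030 for Rbfox3, a splicing factor of mature neurons.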

How the data were processed

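RNA sequencing libraries (TruSeq mRNA, stranded according to the paper) were made from cortices of 16 pups. According to the labels and the paper, the authors used SeqMan NGen for alignment to mm10 (GRCm38), ArrayStar for counts per gene and edgeR for TMM scaling. The deposited values, referred to as normalized reads, are CPM on a linear scale. They were whole multiples of 1 read in 100% of 374510 values of up to 20000 reads (tolerance 0.05 reads). Some cells are empty, and an empty cell of Scn2b was not read as absence of its RNA. Depth sets the counting error only.

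Values were log2 transformed without a pseudocount, and missing values or values below -5 were set to -5. Genotypes were compared with limma 3.58.1 in R 4.3.3 (intensity trend, no covariates, Benjamini-Hochberg adjustment over 21183 genes). Ratios and correlations were tested in Python 3.11.15. Scripts were tested on simulated data. The subunits, the 3 lists of related genes and the 10 marker lists were chosen with earlier results of these data known, and some of their genes are not reported here. Genes named from the lists are the 2 most positive and 2 most negative log2 differences and each at an unadjusted p under 0.05. Alternatives were other filters, scalings, pseudocounts, covariates, subsets and pups left out. Columns other than the values of the 16 pups and the annotation were not used. Lengths are from GENCODE (GRCm38), since lengths in the table are genomic spans.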

Additional observations from a re-analysis of the deposited data

Results flagged for a closer look

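Of 23 groups of values of the subunits and their ratios, 1 held a pup far from the others by Dixon's test, about as many as chance gives, which flags 1 in 20 groups. The log2 ratio of Scn8a to Scn3a was 0.77 in Avil-ChR2 replicate 7, and the nearest other Avil-ChR2 pup was at 0.61. This pup had 135 normalized reads of Scn3a, the lowest of all 16 pups, and 230.1 of Scn8a, the highest of its genotype. Without it, the difference of this ratio between genotypes was -0.024 instead of 0.0021. No interaction of genotype with sex or run passed the adjustment for any of the 6 subunits tested.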

How the results depend on the processing

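Of 346 values under alternatives, 316 kept their direction and their side of the threshold or, for counts, stayed within 1.5 times. The lowest main adjusted p of a difference or ratio was 0.367 (exact permutation test). The side of the threshold therefore had little room to change. The number of subunits at an unadjusted p under 0.05 in limma stayed within 1.5 times in 13 of 30 alternatives. No subunit reached an adjusted p under 0.05 under any alternative run. The 2 subunits at an unadjusted p under 0.05 became 1 without a filter, with quantile normalization, with sex of the labels as a covariate, in the second run only and with the replicate block, and 0 with median centring, with the length slope as a covariate and in the first run only. With pups left out in turn, this count lay between 0 and 2. The log2 difference of Scn1a turned to 0.054 with the length slope and lay between -0.051 and 0.013 with pups left out, and that of Scn3b was -0.0097 in the first run and lay between -0.0016 and 0.018. The log2 ratio of Scn8a to Scn3a was -0.037 in the first run and lay between -0.024 and 0.029. The cause of these changes was not tested, and the log2 differences of Scn1a and Scn3b over all pups were smaller than their standard errors. The replicate numbers are serial numbers of different animals. Same-numbered pups had correlations of their deviations between -0.50 and 0.51, and 1 of 8 pups correlated best with its own number, so that the replicate block was not used as the main fit. With the block, log2 differences were the same (-0.086 for Scn8a), and no adjusted p was under 0.05. An edgeR test on the reads was planned and not run. Depth limits Scn4b (46 to 145 reads) most.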

Other observations

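Of the 46 genes tested in the 10 marker lists, 0 had an adjusted p under 0.05 between the genotypes in limma and 3 an unadjusted p under 0.05, beside 5.41% of all genes. Slc17a7, the vesicular glutamate transporter of cortical excitatory neurons, had 469 ± 42.9 normalized reads in ChR2-flfl and 507 ± 28.8 in Avil-ChR2 pups (log2 difference 0.11, limma adjusted p = 0.884), while the other 4 markers of these cells lay between -0.014 and 0.032. Map2, a dendritic protein, had 1875 ± 113 and 1775 ± 55.3 (log2 difference -0.077, limma adjusted p = 0.908). The third was Ttr, a choroid plexus transcript with means under 1 normalized read. Median log2 differences were 0.0078 for neurons, -0.00096 for excitatory cortical neurons, 0.045 for interneurons, 0.059 for striatal neurons, 0.047 for astrocytes, 0.057 for the oligodendrocyte lineage, 0.055 for microglia, 0.026 for endothelial cells and 0.14 for peripheral sensory neurons. Choroid plexus markers had a median of 0.33 over 3 tested genes and summed to 1.48 to 2.38 normalized reads in ChR2-flfl and 1.45 to 3.25 in Avil-ChR2 pups.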
